A study of Rattus norvegicus with 12 samples.

Results

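The genes that bring iron into a cell, hold it there and let it out were read in epididymal adipocytes, the fat cells of the visceral depot beside the testis, of rats after chronic unpredictable stress (CUS) and of controls. The set was 10 genes chosen by their role, with earlier results of these data known. Tfrc, Slc11a2 and Hfe stood for uptake, and Fth1 and Ftl1 for storage. Slc40a1, Cp and Hamp stood for export and its hormone, and Aco1 and Ireb2 for the iron sensors. A probe belonged to the set if it was not a control spot and its gene name in the scanner files was one of these names. This gave 16 probes of 9 genes, out of 30367 non-control probes of 26481 names on the array. No probe carries the name Ftl1. The RefSeq transcript of ferritin light chain is on the array under the older symbol Ftl, and its probe is described beside the others but was not counted among the 16.

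All rats were young adult Fisher 344 males. The 6 CUS rats met a randomised series of stressors, 2 a day, for 35 days, which included swimming, rotation, isolation, loss of food and water overnight, disturbed light, wet bedding and crowding. The 6 control rats received no stressor and were handled every 2 days, when they were weighed. One array was hybridised per rat with total RNA. The labels and the study's methods name the cells adipocytes, although the protocol field on RNA mentions preadipocytes. The comparison asks how the iron genes of the fat cell stand at the end of the stress period.

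Iron travels in blood bound to transferrin, and the transferrin receptor Tfrc draws the complex into endosomes, from which the divalent metal transporter Slc11a2 carries the metal into the cytosol. Ferritin, a shell of heavy (Fth1) and light (Ftl) chains, stores what is not used, and ferroportin, encoded by Slc40a1, is the exporter of the cell surface. Ceruloplasmin (Cp) oxidises the exported iron so that transferrin can bind it, and hepcidin (Hamp), a peptide hormone made mainly by the liver, binds ferroportin and leads to its breakdown. When iron is scarce, the iron regulatory proteins Aco1 and Ireb2 bind a short hairpin, the iron-responsive element, which keeps Tfrc mRNA stable and holds back translation of ferritin and ferroportin mRNA. Much of this control therefore acts on protein, which an array does not read. In fat tissue, adipocytes and macrophages both hold iron.

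Values are log2 signals relative to the 75th percentile of the same array, and differences are CUS minus control on that log2 scale. Several features of the whole data set bear on every value. All CUS arrays shared a slide and all control arrays shared a different one, so slide and group cannot be told apart. The 75th percentile intensity was 541 to 627 on the CUS arrays and 229.5 to 399.7 on the control arrays, so the choice of scaling matters. Of the probes called different, 49.3% were higher in CUS with the 75th percentile, 58.6% with quantile normalization, 75.5% with median centring, 96.4% when arrays were scaled on 8 spike-in probes, 94.8% without scaling and 33.3% after normexp background correction. The median difference of all probes was -0.02 with the 75th percentile and 0.81 with spike-in scaling, so a spike-in value of about 0.81 is a probe at the middle of the array.

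The arrays also differed in cell type markers. Over all 17392 tested genes 24.2% were higher in CUS and 25.8% lower, and the marker counts are to be read against these shares. The defining adipocyte markers were present on all arrays, with summed signals of 1516 to 1871 times the 75th percentile in CUS and 1469 to 2851 in controls. Of the 11 tested, Pparg, Lep, Cidec and Aqp7 were higher in CUS, Plin1, Retn and Cfd were lower, and the others were not called. All 10 tested red blood cell markers were higher in CUS, where their sum was 2660 to 3667 against 75.5 to 211.0 in controls. Hba-a1 and Hba-a2 were read from the same probe, so they are not separate readings. Of 10 tested mast cell markers 9 were higher. A marker was tested if its signal was well above background on 6 or more arrays. Mcpt1, Ms4a2, Fcer1a and Mcpt10 of the mast cell markers were so on 6 CUS and 0 control arrays, and Cpa3 on 6 and 1. Of the red blood cell markers, Hemgn was so on 6 and 0 and Klf1 on 6 and 1. These markers were tested through the CUS arrays, in which they were high, so their places lend these counts no support. Macrophage markers, which matter for iron because macrophages recycle it, overlapped in sum (92.7 to 188.7 in CUS and 96.2 to 208.1 in controls). Csf1r, C1qa, C1qc and Cd14 were higher, Lyz2 was lower, 6 of the 11 tested were not called, and Marco and Vsig4 were not well above background on any array. Mesothelial markers were higher in 6 of 8 and lower in 0, endothelial markers lower in 6 of 11 and higher in 0, and smooth muscle markers lower in 5 of 7 and higher in 0. Stromal fibroblast markers summed to 73.5 to 158.0 in CUS and 71.1 to 228.4 in controls, with 3 of 10 lower and 1 higher. Control replicate 3 stood apart from the other controls, with the highest adipocyte sum (2851 against at most 1696) and the lowest stromal, endothelial and smooth muscle sums of its group (71.1, 21.3 and 4.95 against at least 187.2, 60.6 and 18.9). In such bulk RNA, fewer cells of a type and less RNA per cell cannot be told apart, and the part of cell composition in the iron results was not tested.

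The probes of the set are strands of 60 bases. Those shown are from the body of the transcript and are set beside a second probe nearer the 3′ end of the same gene in the results below, to show which stretch each value reads. They are given 5′ to 3′ as in the scanner files, with positions in build rn4, in lower case throughout since no base is singled out.
Cp dimmest probe, chr2:105129670-105129729, plus strand: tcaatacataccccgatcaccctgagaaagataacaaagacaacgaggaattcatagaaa
Slc11a2 dimmer probe, chr7:139099082-139099141, minus strand: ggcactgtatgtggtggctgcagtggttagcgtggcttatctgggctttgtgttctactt
Tfrc dimmer probe, chr11:69978846-69980500, minus strand: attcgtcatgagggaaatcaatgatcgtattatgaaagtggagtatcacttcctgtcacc
The Tfrc strand spans 1 or more introns, since its 60 bases cover a longer stretch of the genome. Probes of one gene are told apart below as brighter and dimmer by their mean signal, which is a name and not a comparison of levels.

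Of the 16 probes, 14 gave a signal well above background on 6 or more of the 12 arrays, and these were tested with limma together with all other such probes (19727 in all). In CUS, 4 of the 14 were higher (28.6%) and 3 were lower (21.4%), and 7 were not called. Over all tested probes 24.7% were higher and 25.4% lower, so the iron probes were called about as often as any others. Their median difference was 0.02, against -0.02 for all. The CUS and control values did not overlap for 0 probes on the higher side and 1 on the lower side, Hamp, where 10.6% and 11.2% of all tested probes were without overlap. By role, both ferroportin probes, Aco1 and 1 of 2 Slc11a2 probes were higher, Hamp and 2 of 3 Cp probes were lower, and ferritin, Tfrc, Hfe and Ireb2 did not pass the test.

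**Figure D1:**
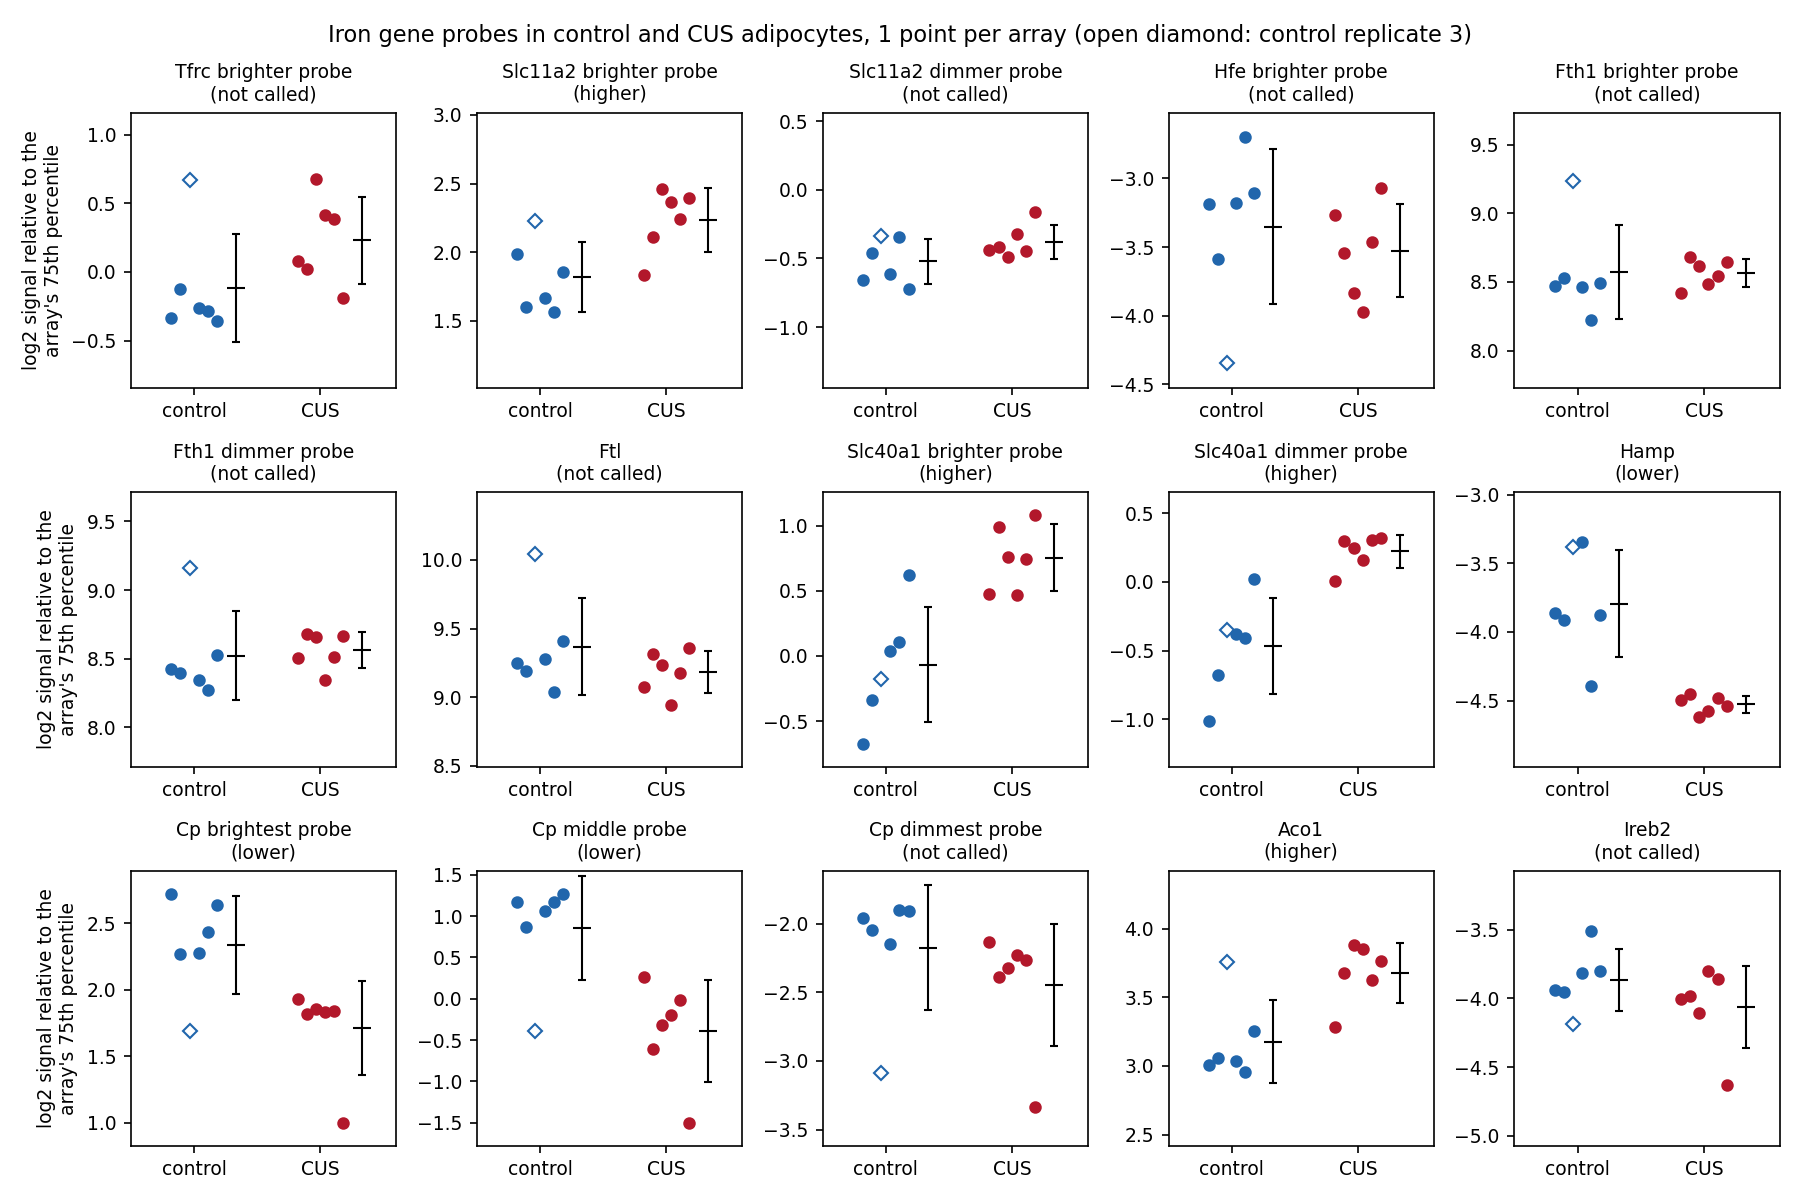
Log2 signal relative to the array's 75th percentile (y axis) of the 14 tested iron gene probes and of Ftl in 6 control (blue) and 6 CUS (red) arrays, with the mean and SD in black. Both Slc40a1 probes, Aco1 and the brighter Slc11a2 probe sit higher in CUS, Hamp sits lower with no overlap, and control replicate 3 (open diamond) lies away from the other controls for Cp, Tfrc, Fth1 and Ftl.

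Tfrc, the gate for transferrin iron, was read by 2 probes. The brighter one (chr11:69976628-69976687) lay between -0.19 and 0.67 in CUS (median 0.23) and between -0.36 and 0.67 in controls (median -0.27). The groups overlapped through control replicate 3, at 0.67, and CUS replicate 6, at -0.19, while the other 5 controls were at -0.12 or below. The means were 0.23 ± 0.32 and -0.12 ± 0.39 (SD, 6 rats a group), a difference of 0.35 (SE 0.19, limma adjusted p = 0.15) with a 95% interval of -0.07 to 0.76. Without control replicate 3 the difference was 0.50 and passed the test (limma adjusted p = 0.00865), a 1.42-fold higher signal. The dimmer Tfrc probe, whose sequence is printed above and which starts at base 2139 of the transcript, was well above background on 1 CUS array and on 0 control arrays and was not tested. The brighter probe starts at base 4357, toward the 3′ end.

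Slc11a2, the endosomal iron transporter, was higher at its brighter probe (chr7:139094505-139094564). CUS arrays lay between 1.83 and 2.46 (median 2.30) and controls between 1.57 and 2.23 (median 1.76). CUS replicates 3 to 6 were above every control, whereas CUS replicates 1 and 2 lay inside the control range. The difference was 0.42 (SE 0.14, limma adjusted p = 0.025), a 1.34-fold higher signal. This call was lost when CUS replicate 3, 4 or 6 or control replicate 2, 4 or 5 was left out (limma adjusted p from 0.0507 to 0.0579). The dimmer probe, printed above, was at -0.38 ± 0.12 in CUS and -0.52 ± 0.17 in controls (SD, 6 rats a group), a difference of 0.14 (SE 0.09, limma adjusted p = 0.23). In the files the dimmer probe is assigned to 2 Ensembl transcripts and the brighter one to 1 of them. The differences of the 2 probes were 0.27 apart, which did not pass an exact permutation test over the 12 arrays (two-sided p = 0.11, 0.17 adjusted over the 6 probe pairs compared in this way).

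Hfe, the membrane protein that senses transferrin iron and whose loss gives iron overload, was dim at both probes. The brighter one (chr17:48471827-48471886) was well above background on 6 CUS and 5 control arrays. It lay between -3.98 and -3.07 in CUS and between -4.35 and -2.70 in controls, so the CUS values fell inside the control range. The difference was -0.18 (SE 0.25, limma adjusted p = 0.57, 95% interval -0.71 to 0.36). The dimmer Hfe probe was well above background on 2 CUS and 0 control arrays and was not tested.

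Neither ferritin chain passed the test. The brighter Fth1 probe (chr1:212432616-212432675) lay between 8.42 and 8.68 in CUS (median 8.58) and between 8.23 and 9.23 in controls (median 8.48). All controls other than replicate 3 were at 8.53 or below, and replicate 3 alone was at 9.23. The difference was -0.004 (SE 0.14, limma adjusted p = 0.98) with a 95% interval of -0.31 to 0.30. The dimmer Fth1 probe (chr1:212432648-212432709) covers in part the same bases, so it is no second reading. Its difference was 0.04 (SE 0.14, limma adjusted p = 0.82). Without control replicate 3 the 2 Fth1 differences were 0.13 and 0.17, and they did not pass the test either (limma adjusted p = 0.20 and 0.11). With spike-in scaling they were 0.83 and 0.87 and passed it, but they were then 0.01 and 0.06 from the median of all probes.

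Ftl (chr1:95929246-95929305) lay between 8.95 and 9.36 in CUS (median 9.21) and between 9.04 and 10.0 in controls (median 9.27). The ranges overlapped, and control replicate 3 was again the highest array of its group. The difference was -0.18 (SE 0.15, limma adjusted p = 0.33, 95% interval -0.51 to 0.14), and -0.05 without control replicate 3. Ferritin genes have many near-identical copies in the rat genome, so that one probe can take up RNA of several, and these values are uncertain in that respect. A ferritin-like entry on the same stretch of the genome, LOC100364138, differed by -0.21 (limma adjusted p = 0.24). Of the ferritin-like copies elsewhere that were measured, LOC688591 was higher by 1.16 (limma adjusted p = 0.0011), RGD1563378 by 0.65 (limma adjusted p = 0.015) and 1 of 2 probes of LOC691895 by 0.50 (limma adjusted p = 0.033). The second LOC691895 probe and the probes of RGD1561106, RGD1560203, LOC681066 and RGD1561661 were not well above background on any array. These ferritin-like entries were looked up after the members' values were seen.

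Slc40a1, the iron exporter, was higher in CUS at both probes. The brighter probe (chr9:44978571-44978630) lay between 0.47 and 1.08 in CUS (median 0.75) and between -0.67 and 0.62 in controls (median -0.07). Only control replicate 6, at 0.62, reached into the CUS range. The means were 0.75 ± 0.25 and -0.07 ± 0.44 (SD, 6 rats a group), a difference of 0.82 (SE 0.19, limma adjusted p = 0.0041) or 1.77-fold. The dimmer probe (chr9:44977923-44977982) lay between 0.004 and 0.32 in CUS (median 0.28) and between -1.01 and 0.02 in controls (median -0.40). Here too control replicate 6 was the one control array at the CUS level, and the difference was 0.69 (SE 0.15, limma adjusted p = 0.0022) or 1.61-fold. Both probes passed the test in all 12 fits that each left out 1 array, with differences of 0.70 to 0.96 and of 0.58 to 0.79. Their 2 differences were 0.13 apart (exact permutation test, two-sided p = 0.18, 0.22 adjusted over the 6 pairs). Red blood cell markers were higher on the same arrays. Of the 11 tested macrophage markers 4 were higher and 1 lower, with a median summed signal of 135.4 in CUS and 152.3 in controls. The part of these cells in the ferroportin result was not tested.

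Hamp, the hormone that removes ferroportin from the surface, was read by 1 probe (chr1:85978236-85978295) with 10 spots on each array. It lay between -4.62 and -4.45 in CUS (median -4.52) and between -4.40 and -3.34 in controls (median -3.87). No CUS array reached the control range, and the CUS arrays lay close together. The means were -4.53 ± 0.06 and -3.80 ± 0.39 (SD, 6 rats a group), a difference of -0.73 (SE 0.15, limma adjusted p = 0.0022), so that the control signal was 1.66-fold higher. The unscaled intensity did not show this. Its median was 24.4 in CUS and 23.6 in controls, against 541 or more and 399.7 or less for the 75th percentile of the arrays, and the difference was 0.05 without scaling and 0.10 with spike-in scaling (limma adjusted p = 0.78 and 0.70). With quantile normalization it was -0.37 (limma adjusted p = 0.032) and with median centring -0.46 (limma adjusted p = 0.0095). After normexp correction it was -0.67 (limma adjusted p = 6.7e-05), and in the authors' normalized values -0.36 (limma adjusted p = 0.041). The Hamp call thus depends on the scaling. Without scaling, its signal near the lower end of the array did not rise with the rest of it. The probe was well above background on all 12 arrays, while of 8 hepatocyte markers Fgb, Fga and Apob were not well above background on any array, Ttr and Serpina1 were so on 1 control array each, and Apoa1 on 2 CUS and 3 control arrays. Alb and Apoc3 were tested and were higher in CUS.

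**Figure D2:**
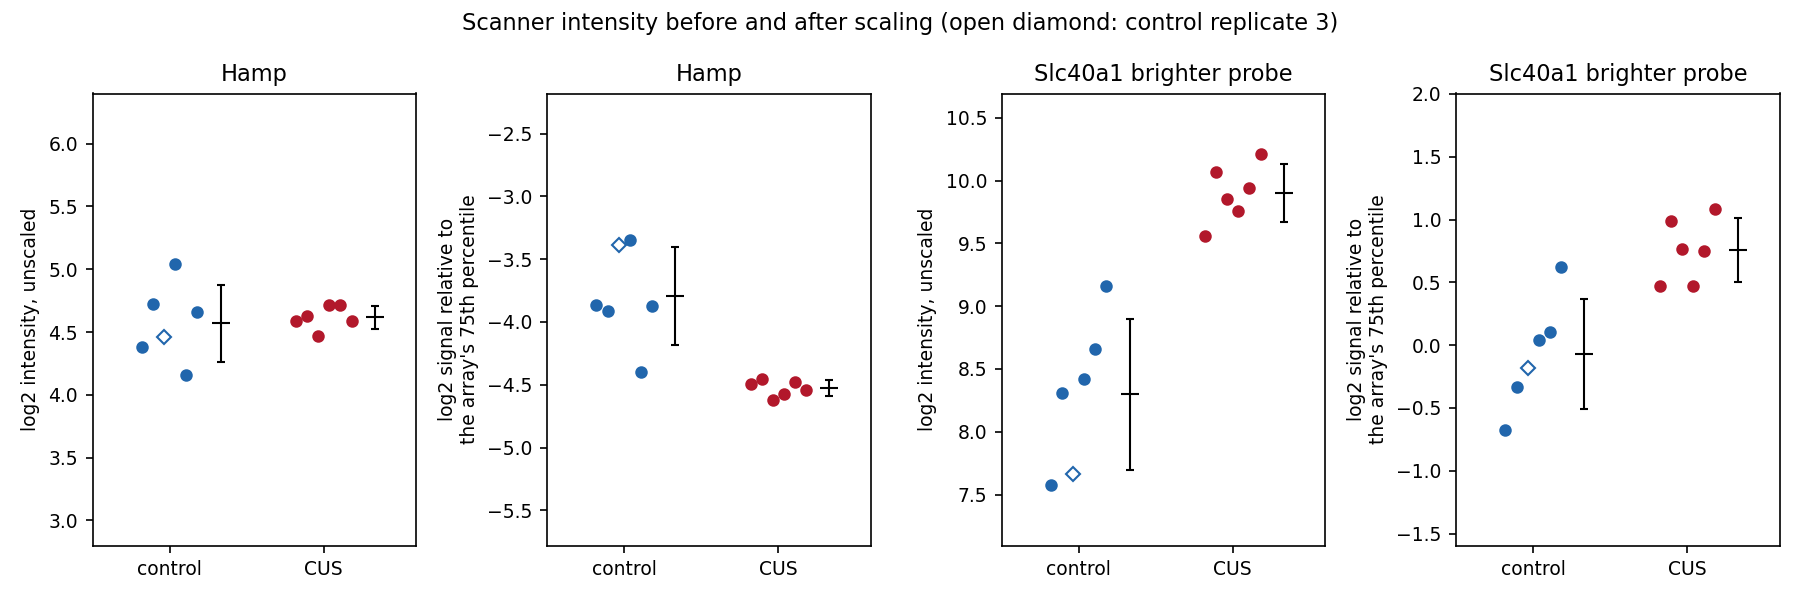
Hamp and the brighter Slc40a1 probe in 6 control (blue) and 6 CUS (red) arrays, as unscaled log2 intensity and as log2 signal relative to the array's 75th percentile (y axes span the same number of log2 units), with mean and SD in black. The 2 groups overlap for Hamp before scaling and separate after it, whereas Slc40a1 is higher in CUS on both scales.

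Cp, the ferroxidase that works with ferroportin, was lower in CUS at 2 of its 3 probes. The brightest probe (chr2:105148774-105148833) is assigned to the transcript of the form anchored to the membrane by glycosylphosphatidylinositol. It lay between 1.00 and 1.93 in CUS (median 1.84) and between 1.69 and 2.72 in controls (median 2.35). Only control replicate 3 fell into the CUS range, and CUS replicate 6 lay below all other arrays. The means were 1.71 ± 0.35 and 2.34 ± 0.37 (SD, 6 rats a group), a difference of -0.62 (SE 0.19, limma adjusted p = 0.018). This call was lost with median centring (-0.36, limma adjusted p = 0.15).

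The middle Cp probe (chr2:105135264-105135323), at the 3′ end of the RefSeq transcript of Cp, had the largest difference of the 14 tested probes. It lay between -1.50 and 0.27 in CUS (median -0.25) and between -0.39 and 1.27 in controls (median 1.12). The controls other than replicate 3 were at 0.87 or above, clear of every CUS array. The difference was -1.25 (SE 0.33, limma adjusted p = 0.0071), which makes the control signal 2.39-fold higher, and -1.51 without control replicate 3. The dimmest Cp probe, printed above, belongs to the same RefSeq transcript further toward its 5′ end. It was at -2.45 ± 0.44 in CUS and -2.18 ± 0.46 in controls (SD, 6 rats a group), a difference of -0.27 (SE 0.24, limma adjusted p = 0.36), and of -0.45 without control replicate 3 (limma adjusted p = 0.054). After normexp correction it passed the test (-0.40, limma adjusted p = 0.0071).

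The 3 Cp probes thus gave unequal differences, and this was tested. The middle and the dimmest probe, on 1 transcript, were 0.99 apart (exact permutation test of the difference between the probes on each array, two-sided p = 0.0022, the smallest value that 6 against 6 arrays can give, 0.013 adjusted over the 6 pairs). The brightest probe stood 0.63 from the middle one (exact permutation p = 0.011, adjusted 0.022) and 0.35 from the dimmest (exact permutation p = 0.0065, adjusted 0.019). The middle and the brightest probe were lower in CUS also without control replicate 3 and in every other fit that left out 1 array. With spike-in scaling the 3 differences were 0.21, -0.43 and 0.56, of which none passed the test, and all 3 lay below the median of all probes (0.81). Macrophages also make Cp. Control replicate 3 had the lowest Cp of the controls at all 3 probes. It also had the lowest macrophage, stromal, endothelial, smooth muscle, mesothelial and red blood cell marker sums of the controls. CUS replicate 6 went the other way. Its Cp was the lowest of all arrays at all 3 probes (1.00, -1.50 and -3.34 for the brightest, middle and dimmest). Its macrophage marker sum was the highest of the CUS arrays (188.7, others 92.7 to 172.4). The part of these cell types in the Cp result was not tested.

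Of the 2 iron sensors, Aco1, which is also the cytosolic aconitase, was higher in CUS. Its probe (chr5:57591506-57591565, 10 spots on each array) lay between 3.28 and 3.88 in CUS (median 3.72) and between 2.96 and 3.75 in controls (median 3.05). Control replicate 3, at 3.75, was the one control above the lowest CUS array. The difference was 0.50 (SE 0.15, limma adjusted p = 0.013) or 1.42-fold, and 0.62 without control replicate 3. It passed the test in all 12 fits that left out 1 array.

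Ireb2, which has no enzyme activity and is controlled by protein breakdown, was at -4.06 ± 0.30 in CUS and -3.87 ± 0.22 in controls (SD, 6 rats a group) at its probe (chr8:58476082-58476141). It lay between -4.63 and -3.80 in CUS and between -4.19 and -3.51 in controls, so that the groups overlapped in part, and the difference was -0.20 (SE 0.15, limma adjusted p = 0.28, 95% interval -0.52 to 0.12). This dim probe followed the processing, with -0.46 after normexp correction (limma adjusted p = 0.000135) and 0.58 without scaling (limma adjusted p = 0.031). Whether Aco1 and Ireb2 differ from each other in their response was not tested.

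**Figure D3:**
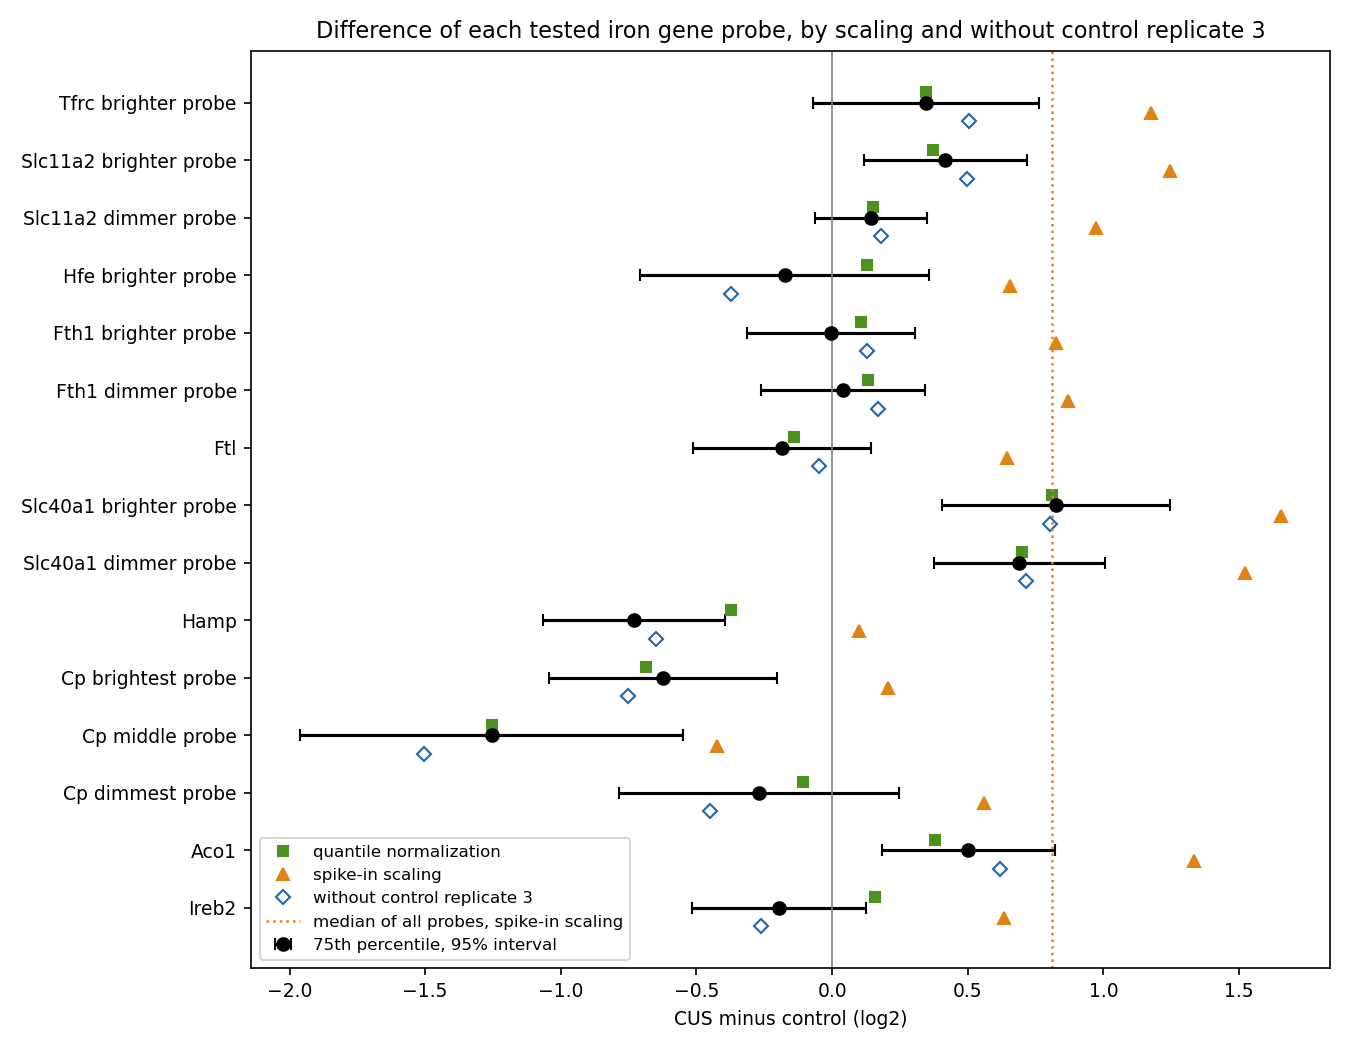
Difference CUS minus control (log2, x axis) of each tested iron gene probe and Ftl with the 75th percentile scaling and its 95% interval (black), with quantile normalization (green), with spike-in scaling (orange) and without control replicate 3 (open diamonds). The 2 Slc40a1 probes have the highest differences and the middle Cp probe the lowest under each of the 3 scalings, while Hamp and the brightest Cp probe lie above 0 with spike-in scaling but below the median of all probes (dotted line, 0.81).

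The other genes of iron handling were read from 9 lists of 67 genes in all, each gene at its brightest tested probe. Of these, 59 were tested, 23 were higher in CUS (39.0%), 7 were lower (11.9%) and 29 were not called. Bmp6 and Acvr1, among the 23, passed the filter on dim probes through the CUS arrays, in which they were high. Their places lend this count no support. Over all 17392 tested genes 24.2% were higher and 25.8% lower, and the list counts below are to be read against these shares. The median difference of the 59 genes was 0.25, against -0.02 for all tested genes. Without control replicate 3 the counts were 28 and 11.

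Transferrin uptake and reduction of iron gave 3 higher, 1 lower and 5 uncalled genes of 9. That is 33.3% higher and 11.1% lower, against 24.2% and 25.8% of all tested genes. Steap1 and Steap3, of the family of endosomal metal reductases, were higher by 0.55 and 0.26 (limma adjusted p = 0.031 and 0.034). Exoc6, an exocyst subunit that helps return the transferrin receptor to the surface, differed by -0.56 (limma adjusted p = 0.037). Of the 4 other divalent metal transporters, Slc39a14, which takes up iron not bound to transferrin, differed by -1.85 (SE 0.43, limma adjusted p = 0.0039), while its other probe was not called. Slc30a1, a zinc exporter, was higher by 0.99 with no overlap (SE 0.10, limma adjusted p = 1.7e-05).

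Around ferritin itself, 2 of 4 genes were higher and 1 was lower, where 24.2% and 25.8% of all tested genes were. Ncoa4, the receptor that delivers ferritin to autophagy, was at -1.56 ± 0.17 in CUS and -2.58 ± 0.27 in controls (SD, 6 rats a group), with no overlap and a difference of 1.02 (limma adjusted p = 9.2e-05). Pcbp1, a chaperone that hands iron to ferritin, was higher by 0.55 (limma adjusted p = 0.0026). Ftmt, mitochondrial ferritin, was a dim probe that differed by -0.54 (limma adjusted p = 0.0057). Heph, the ferroxidase related to Cp, was the 1 tested gene of its list and differed by -0.27 (limma adjusted p = 0.16), which is not a call.

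The pathway that sets hepcidin, a bone morphogenetic protein signal, had 4 higher and 7 uncalled genes of 11. The share higher was 36.4%, against 24.2% of all tested genes. The receptor gene Bmpr1a was higher by 0.77 (limma adjusted p = 0.00077). The ligand gene Bmp6 was well above background on 6 CUS and 0 control arrays, with a signal at least 1.78-fold higher in CUS. The receptor gene Acvr1 was so on 6 CUS and 1 control array, at -3.85 ± 0.24 in CUS and -5.33 ± 0.40 in controls. Bmp6 and Acvr1 passed the filter on dim probes through the CUS arrays, the group in which they were high, so their 2 places in the count lend it no support. These genes also serve signalling that has nothing to do with iron. Among genes of iron regulatory protein turnover and hypoxia, 0 of 4 were higher and Epas1, the hypoxia factor 2α, differed by -0.55 (limma adjusted p = 0.029).

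Of the genes of mitochondrial iron import and iron-sulfur cluster assembly, 8 of 14 were higher (57.1%, against 24.2% of all tested genes), 0 lower and 6 not called, with a median difference of 0.35. Nfs1, the desulfurase that supplies sulfur, was higher by 0.96 (SE 0.19, limma adjusted p = 0.0014). Iscu, the scaffold on which clusters form, was higher by 0.85 (SE 0.19, limma adjusted p = 0.0035), and Fdx1, a ferredoxin that passes electrons to it, by 0.62 with no overlap (SE 0.09, limma adjusted p = 0.00022). Iscu and Fdx1 were both highest among controls on control replicate 3.

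In heme and hemoglobin iron, 4 of 9 genes were higher and 1 lower. The shares were 44.4% and 11.1%, against 24.2% and 25.8% of all tested genes. Hmox1, which frees iron from heme, was higher by 3.03 (SE 0.24, limma adjusted p = 3.5e-06). Slc48a1, which carries heme out of endolysosomes into the cytosol, was at 0.37 ± 0.20 in CUS and -0.80 ± 0.29 in controls (SD, 6 rats a group), with a difference of 1.17 (limma adjusted p = 5.1e-05). Abcg2, which can export heme and porphyrins, differed by -1.50 (SE 0.31, limma adjusted p = 0.0019), and control replicate 3 was at the CUS level. Hmox1 and Slc48a1 moved on the arrays on which red blood cell markers moved, and the share of those cells was not tested.

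Of 4 further mRNAs known to carry an iron-responsive element, 1 was higher and 3 were lower, so they did not go one way. Over all tested genes 24.2% were higher and 25.8% lower. Alas2, the erythroid enzyme of heme synthesis, was 71.3-fold higher, and it is also one of the red blood cell markers. Epas1 (-0.55), Cdc42bpa (-0.70) and Cdc14a (-0.65) were lower (limma adjusted p = 0.029, 0.0018 and 0.036). Within the set itself, Slc40a1 was higher and Fth1 and Ftl did not pass the test, and all 3 mRNAs are known to carry the element at their 5′ end. Tfrc, whose mRNA the element keeps stable, differed by 0.35 at its brighter probe (limma adjusted p = 0.15). Without control replicate 3 it differed by 0.50 (limma adjusted p = 0.00865).

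**Figure D4:**
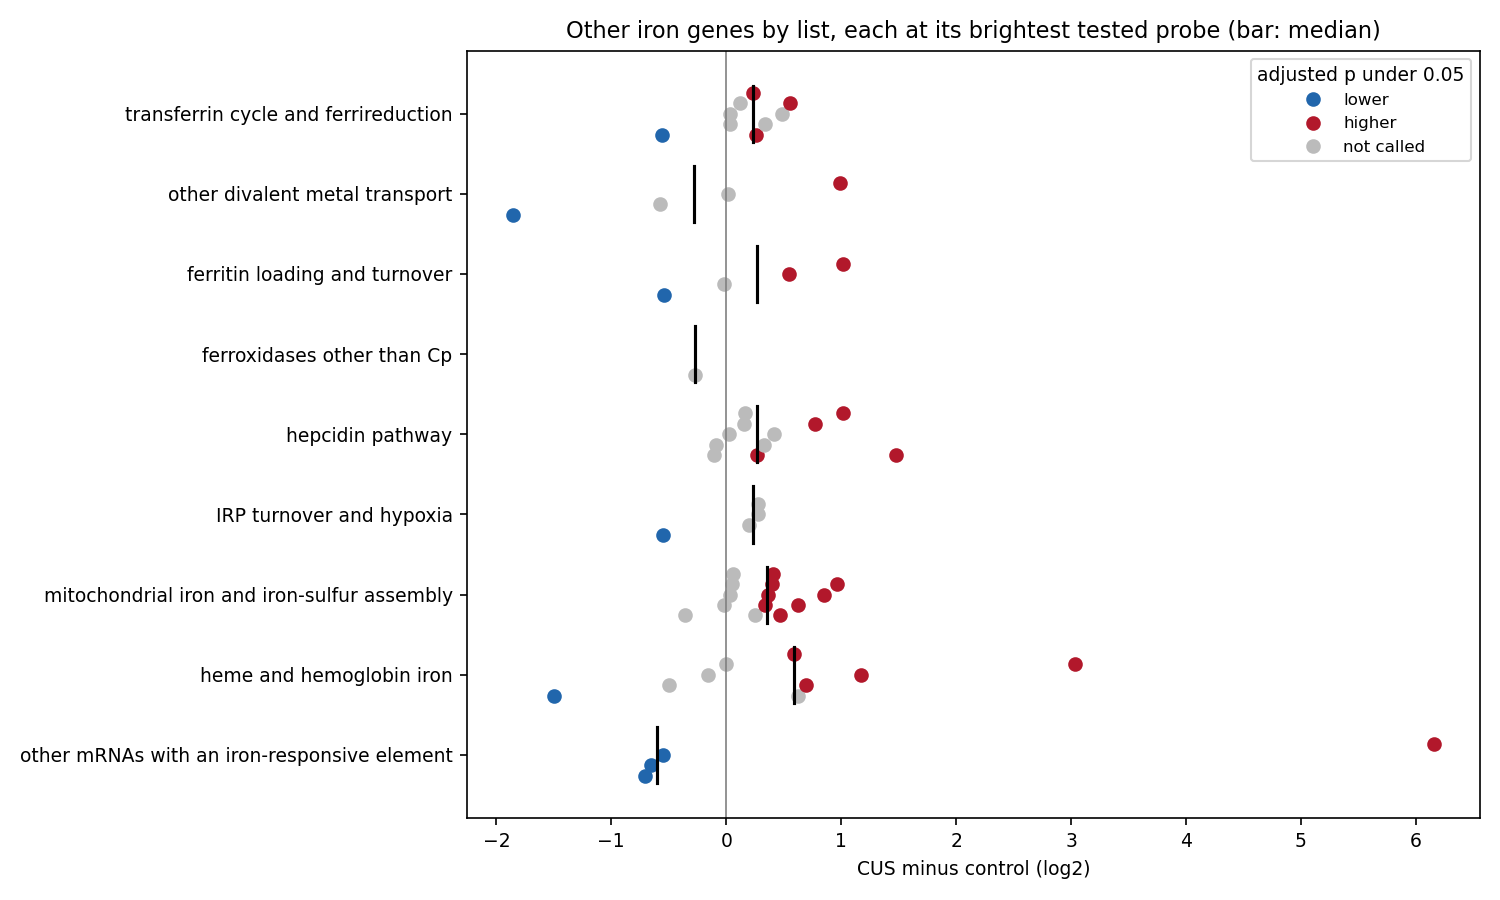
Difference CUS minus control (log2, x axis) of the tested genes of 9 iron-related lists (y axis), 1 point per gene at its brightest tested probe, red for higher, blue for lower and grey for not called at an adjusted p of 0.05, with the list median as a bar. Of the mitochondrial list 8 of 14 genes are higher and 0 lower, and Alas2 (6.16) and Hmox1 (3.03) lie far from the others.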

How the data were processed

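Each of the 12 arrays (6 CUS, 6 control, 1 rat each) was read from the deposited scanner file. The spot intensities in it were, per the file headers, background-subtracted and detrended by the authors' core with Agilent Feature Extraction 10.7.3.1. The probes are placed on build rn4. The methods speak of an exon array, but the files hold a gene expression design. From the intensities, control spots and flagged outlier spots were removed, replicate spots were averaged on the log2 scale and each array's 75th percentile was subtracted. The 19727 probes with a signal well above background on 6 or more of the 12 arrays were fitted with limma 3.58.1 in R 4.3.3, two-sided, without covariates, with p-values adjusted by Benjamini-Hochberg over these probes and a threshold of 0.05. No iron probe was saturated on any array. Array intensities carry no counts, and the number of arrays limits the precision. The authors also deposited a table of normalized intensities of the same arrays. Its values, taken to log2, served as an alternative.

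Differences between probes of a gene were compared by exact permutation over arrays. The fit was tested on simulated data with known changes. The alternatives were other scalings, background correction, filters, variance models, the methods' t-test, a replicate block and leaving out each array. Named were all probes of the set, up to 3 genes of each list by absolute difference among those past the test, and the 4 further mRNAs with an iron-responsive element. Some listed genes and a sequence are not reported here, and the counts leave those genes out. Members and lists were chosen with earlier results of these data known. Sequences and positions are those of the scanner files.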

Additional observations from a re-analysis of the deposited data

Results flagged for a closer look

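In 16 of 76 sets of 6 arrays looked at (1 probe or gene in 1 group), the most extreme array lay apart from the other 5 by more of the whole range than the 95% limit of Dixon's test allows. Chance gives this in about 1 in 20 sets. The array was control replicate 3 in 10 of the 16, CUS replicate 1 in 3 and CUS replicate 6 in 3, and the sets share arrays, so they are not independent.

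Control replicate 3 was low for Cp, at -0.39 for the middle probe (others 0.87 to 1.27) and -3.09 for the dimmest probe (others -2.15 to -1.90). It was high for Tfrc at the brighter probe (0.67, others -0.36 to -0.12) and for ferritin, at 9.23 for the brighter Fth1 probe (others 8.23 to 8.53), 9.16 for the dimmer one (others 8.27 to 8.53) and 10.0 for Ftl (others 9.04 to 9.41). It was also high for the mitochondrial genes Iscu (4.06, others 2.67 to 3.18) and Fdx1 (1.94, others 1.49 to 1.66), and low for Hmox1 (-1.75, others -0.92 to -0.65) and Abcg2 (-2.81, others -1.29 to -0.66). The same array had the highest adipocyte marker sum (2851) and the lowest stromal one (71.1) of the controls. What set it apart was not tested.

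CUS replicate 6 was the lowest array of its group for the brightest Cp probe (1.00, others 1.82 to 1.93), the dimmest Cp probe (-3.34, others -2.39 to -2.13) and Ireb2 (-4.63, others -4.11 to -3.80). CUS replicate 1 was the lowest for Bmpr1a (0.88, others 1.21 to 1.40), Nfs1 (0.97, others 1.31 to 1.51) and Iscu (3.63, others 4.03 to 4.17).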

How the results depend on the processing

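Among 404 values of single probes under the alternatives, 21 lost a call and 14 gained one in the same direction. The sign turned in 32, of which 9 were called with the 75th percentile or under the alternative and 23 under neither. The scaling mattered most. Of 14 iron probes, 4 higher and 3 lower with the 75th percentile became 8 and 0 with spike-in scaling, 9 and 0 without scaling, 6 and 2 with median centring, and 4 and 6 after normexp correction. With the methods' t-test and its fold threshold they became 0 and 1 (4 and 3 after Benjamini-Hochberg adjustment). The 23 higher and 7 lower pathway genes became 47 and 1 with spike-in scaling, 46 and 0 without scaling, 35 and 3 with median centring, 20 and 12 with normexp, and 6 and 2 with the t-test and fold threshold. The 9 sign changes were, with spike-in scaling and without scaling, the brightest Cp probe (0.21 and 0.15), the brighter Fth1 probe (0.83 and 0.77), Ftl (0.65 and 0.59) and Hamp (0.10 and 0.047), and, without scaling, Ireb2 (0.58). The other 23 were of Fth1, Ftl, Hfe, Ireb2 and the dimmest Cp probe. By construction, spike-in scaling and no scaling leave in the higher overall signal of the CUS slide. Leaving out 1 array gave 3 to 5 higher and 3 to 3 lower iron probes, 18 to 28 higher and 4 to 11 lower pathway genes. The lower count was 4 without CUS replicate 3 or 4 and 11 without control replicate 3. Both Slc40a1 probes, Aco1, Hamp and the middle and brightest Cp probes passed in every such fit.

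With the replicate number as a block, 5 iron probes were higher and 3 lower (Tfrc passed, adjusted p = 0.039), and 24 pathway genes were higher and 8 lower. The numbers do not pair the rats: deviations of same-numbered arrays correlated at -0.19 to 0.43, and only numbers 3 and 5 correlated best with their own. Tfrc also passed with array weights (0.54, adjusted p = 0.0049) and with median centring (0.61, adjusted p = 0.015). Dim probes (Hamp, Ireb2, Hfe) have signals near background, which limits what their differences can show.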
